A study of Drosophila melanogaster with 10 samples.

Results

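The genes described here encode the subunits of the proteasome, measured by RNA sequencing in midguts of Drosophila melanogaster, from adult males. They were chosen by symbol alone, as every gene of the deposited table whose symbol begins with Prosalpha or Prosbeta, or with Rpn or Rpt and a digit. The rule found 47 of 14310 genes. Of these, 32 have the plain subunit symbols, 7 of the alpha ring, 7 of the beta ring, 10 of the base and 8 of the lid. The other 15 have symbols ending in T or R, or in one of these letters and a digit, and are gene copies of single subunits, several of them known as testis-specific in flies.

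The study compared 5 libraries labelled dHNF4 RNAi with 5 labelled control, each from the pooled RNA of 20 midguts of yeast-fed males kept at 25 °C with 12 h of light and 12 h of dark, at 7 days of adult age. Males of the first group were w/Y and carried mex-GAL4/+, a driver described as specific to enterocytes, the absorptive cells of the midgut. They also carried UAS-dHNF4 RNAi NIG9310-R2/+, a knockdown transgene against Hnf4, which encodes the HNF4-type nuclear receptor of the fly. Control males were w1118/Y with the same transgene and no driver, so that driver and knockdown cannot be told apart, and nothing states that the X chromosomes and backgrounds were matched.

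The proteasome degrades proteins that have been tagged with chains of ubiquitin. Its core particle is a barrel of stacked rings, with alpha rings outside that control entry and beta rings inside that hold the proteolytic sites. A cap binds the core at its ends. The base of the cap holds a ring of ATPases (the Rpt subunits) that unfold the substrate, and the lid (most Rpn subunits) removes the ubiquitin. In mammals the subunit genes are known to be transcribed together under the transcription factor Nrf1 when proteasome activity drops, and cnc is the fly gene of that family.

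Values are TPM, the abundance of a transcript scaled to a fixed library total, which are corrected for gene length and can be compared between genes. They are shares of a library and keep no sequencing depth, which is unknown here. The share taken by most genes differed between the groups. The genes tested had a median of 19.0 ± 0.315 TPM per library in the libraries labelled dHNF4 RNAi and 12.8 ± 0.953 TPM in those labelled control (SD, n = 5 each). Over all 8784 genes tested, the median log2 difference was 0.55, equal to 1.46-fold. Counts of calls, medians and the log2 differences of the subunit genes are therefore also given after median-of-ratios scaling, which brings the median difference of all genes to 0.01. Hnf4, the targeted gene, measured 42.1, 46.1, 47.4, 44.7 and 48.0 TPM in the libraries labelled dHNF4 RNAi and 36.5, 45.8, 41.8, 36.3 and 33.5 TPM in those labelled control. Its log2 difference was 0.24 (adjusted p = 0.0199) on the TPM scale and -0.35 (adjusted p = 0.000815) after median-of-ratios scaling, in limma's test. The target gene thus did not show a decrease in TPM, and every direction below is that of the labels.

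Expression of all 32 plain subunit genes was higher under the dHNF4 RNAi label than under the control label. Together they held 4791 ± 222 TPM there and 2499 ± 185 TPM in the control libraries (SD, n = 5 each), which was 0.490% and 0.256% of each library. The median subunit gene was 1.92-fold higher, a log2 difference of 0.94 on the log2(TPM + 1) scale. All 32 passed limma's test at a Benjamini-Hochberg adjusted p under 0.05, with adjusted p-values of 1.44e-08 to 0.0257, and 0 were lower, also at an unadjusted p under 0.05. Of all genes tested, 66.9% were called higher and 16.3% lower on this scale. Because the midgut is a mixture of cells, more cells of a type that is rich in these transcripts and more RNA per cell cannot be told apart.

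After median-of-ratios scaling, 30 of the 32 genes were still called higher, where 35.6% of all genes tested were called higher and 35.8% lower. The median log2 difference of the 32 was then 0.35, equal to 1.27-fold. Their scaled sum was 3878 ± 165 in the libraries labelled dHNF4 RNAi and 3065 ± 136 in the control libraries (SD, n = 5 each). The exceptions were Prosalpha1 (adjusted p = 0.169) and Rpn12 (adjusted p = 0.0519), and both kept a positive difference. At an unadjusted p under 0.05, 31 were higher and 0 lower.

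**Figure D1:**
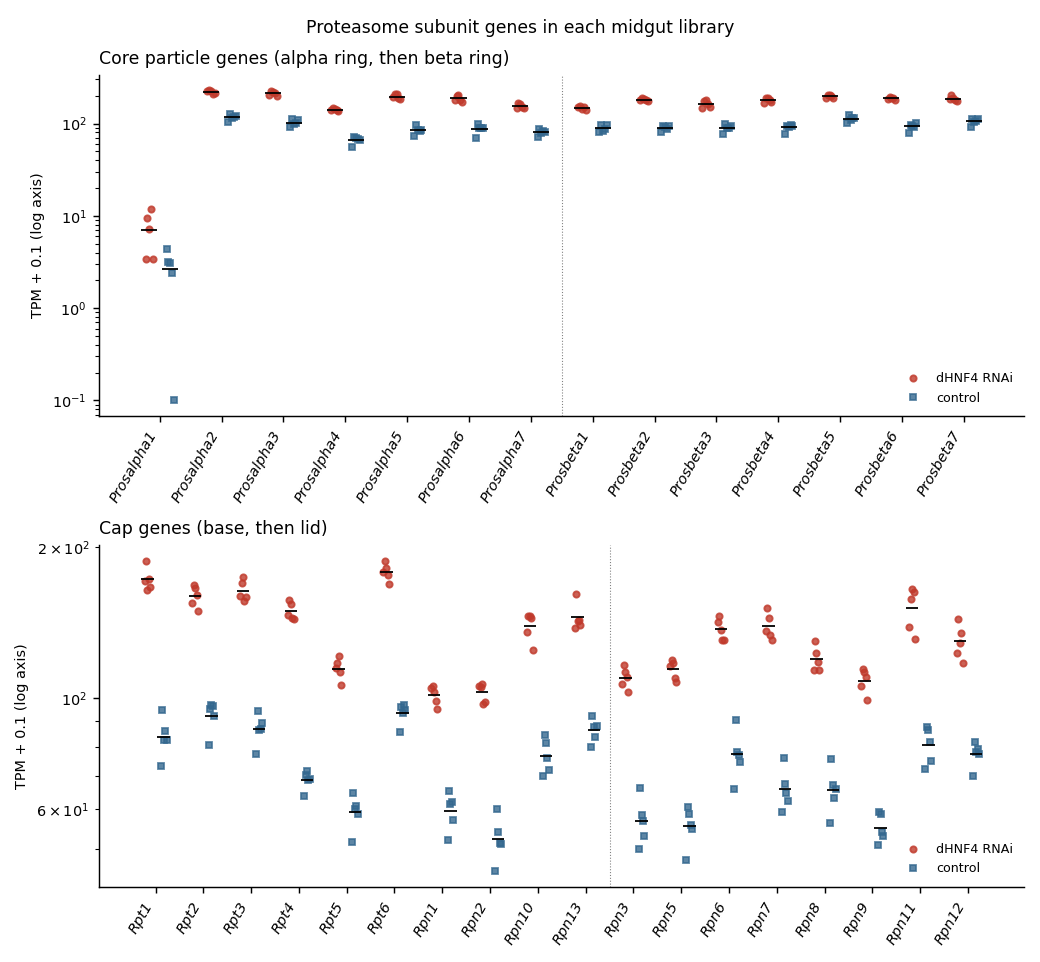
TPM of the 32 plain subunit genes in each library, plus 0.1, on a log axis. The upper panel shows core genes and the lower panel cap genes, with red circles for the 5 libraries labelled dHNF4 RNAi at the left of each gene, blue squares for the 5 control libraries at the right, and bars for group means. Apart from Prosalpha1, the groups do not overlap for any gene.

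For 31 of the 32 genes, every library labelled dHNF4 RNAi was above every control library, and Prosalpha1 was the exception. The same was true of 60.3% of all genes tested. After median-of-ratios scaling 26 of the 32 were separated in this way, beside 28.6% of all genes tested. Prosalpha1, Prosbeta1, Prosbeta3, Rpn11, Rpn12 and Rpn13 overlapped there.

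Without Prosalpha1, the levels and the changes of the other 31 genes lay in a narrow band. Group means were 101 to 219 TPM in the libraries labelled dHNF4 RNAi and 52.2 to 117 TPM in the control libraries. The ratios of the means were 1.67 to 2.31. The SD of the log2 differences over the 31 genes was 0.12, where it was 0.86 over all genes tested. Those genes range upwards from a mean of 1 TPM and were not matched to the 31 genes by level. All 31 were above the all-gene median, from Prosbeta1, with 64.8% of the genes tested below it, to Prosalpha5, with 91.2% below it. A difference of at least 2-fold was reached by 11 of the 32 on the TPM scale, beside 16.5% of all genes tested. After median-of-ratios scaling 0 of the 32 were called with such a difference, beside 3.88% of all genes tested.

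The alpha ring genes had the highest median of the sub-complexes, a log2 difference of 1.09 on the TPM scale and 0.49 after median-of-ratios scaling. Prosalpha5, a structural subunit of the ring, had the largest difference of the 31 genes. It measured 194, 207, 207, 188 and 182 TPM in the libraries labelled dHNF4 RNAi, against 73.4, 96.4, 85.2, 83.4 and 85.6 TPM in the control libraries. The lowest value of the first group was far above the highest control, and the log2 difference was 1.20 (SE 0.073, adjusted p = 7.83e-08), and 0.60 after scaling (adjusted p = 1.85e-06).

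Prosalpha2 was the most abundant subunit transcript in both groups by its mean, and had the smallest difference in the alpha ring. It measured 223, 230.2, 223, 207 and 213 TPM in the libraries labelled dHNF4 RNAi, against 105, 128, 116, 118 and 121 TPM in the control libraries. The log2 difference was 0.90 (SE 0.061, adjusted p = 1.52e-07). Prosalpha7 measured 149, 166, 162, 149 and 147 TPM in the libraries labelled dHNF4 RNAi, against 71.1, 87.2, 78.1, 83.2 and 80.6 TPM in the control libraries (log2 difference 0.94, SE 0.065, adjusted p = 1.67e-07). Both genes kept their calls after scaling, with log2 differences of 0.30 for Prosalpha2 and 0.35 for Prosalpha7. Prosalpha3, whose tail in yeast closes the gate of the core, had a log2 difference of 1.05 on the TPM scale and 0.45 after scaling. Prosalpha4 had 1.09 and Prosalpha6 1.10 on the TPM scale, and after scaling they had 0.49 and 0.51.

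Prosalpha1 was the one plain subunit gene at a low level. It measured 3.31, 9.37, 7.15, 11.8 and 3.29 TPM in the libraries labelled dHNF4 RNAi, against 4.33, 3.07, 2.95 and 2.32 TPM in control replicates 1 to 4, and was listed at 0 in control replicate 5. The groups overlapped, and the log2 difference of 1.23 had a wide error (SE 0.455, adjusted p = 0.0257). The call was lost without replicate 2 of the libraries labelled dHNF4 RNAi (adjusted p = 0.0584) and without their replicate 4 (adjusted p = 0.0624).

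The annotation places a second gene for this subunit beside it. Prosalpha1 (FBgn0263121) lies on chromosome 2R at 7827303 to 7828678 on the minus strand (BDGP6.54). CG30382 (FBgn0050382), named Prosalpha1R in that annotation, lies at 7830413 to 7831771 on the same strand, and 1734 bp separate them. Both have a coding length of 732 bp and share the lengths of exons 2, 3 and 4, at 100, 177 and 580 bp. The deposited files give the neighbour its CG symbol, so that the rule on symbols did not take it. Their sequences were not compared. If the transcripts are also close in sequence, reads are divided between them by estimation and the level of either row is uncertain. The assignment was not tested.

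CG30382 was at the level of the other subunits. It measured 160.0, 175, 164, 166 and 153 TPM in the libraries labelled dHNF4 RNAi, against 78.6, 99.9, 96.2, 93.3 and 99.0 TPM in the control libraries. The groups did not overlap, and the log2 difference was 0.81 (SE 0.072, adjusted p = 1.00e-06), and 0.21 after median-of-ratios scaling (adjusted p = 0.0104). Prosalpha1 made up 2.03% to 6.61% of the sum of the pair in the libraries labelled dHNF4 RNAi and 0% to 5.22% in the control libraries. The summed pair had a log2 difference of 0.83 (SE 0.071, adjusted p = 7.44e-07), and of 0.23 (adjusted p = 0.00605) after scaling. On both scales the sum was below the other alpha ring genes, of which Prosalpha2 was lowest, at 0.90 and 0.30. It was inside the range of the beta ring genes, 0.74 to 1.01 on the TPM scale and 0.14 to 0.41 after scaling. This sum was chosen after the values were seen.

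The beta ring genes had a median log2 difference of 0.86 on the TPM scale and 0.27 after median-of-ratios scaling. The catalytic subunits spanned the range of the ring. Prosbeta1, the caspase-like protease, had with Rpn12 the smallest difference of the 32 genes, and Prosbeta2, the trypsin-like one, the largest in its ring. Differences between genes were not tested. Prosbeta1 measured 149.5, 154, 144, 151 and 139.9 TPM in the libraries labelled dHNF4 RNAi, against 79.8, 95.3, 82.4, 87.0 and 97.1 TPM in the control libraries (log2 difference 0.74, SE 0.065, adjusted p = 9.21e-07). After scaling its difference was 0.14 (adjusted p = 0.0442) and the groups overlapped.

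Prosbeta2 measured 180.1, 189.9, 183, 177 and 174 TPM in the libraries labelled dHNF4 RNAi, against 80.5, 94.0, 91.7, 87.8 and 93.9 TPM in the control libraries. Its log2 difference was 1.01 (SE 0.057, adjusted p = 4.87e-08), and 0.41 after scaling. Prosbeta5, the chymotrypsin-like subunit and the target of most proteasome inhibitors, was the most abundant beta transcript by its mean in both groups. It measured 191, 206, 204, 197 and 187 TPM in the libraries labelled dHNF4 RNAi, against 102, 122, 108, 114 and 115 TPM in the control libraries (log2 difference 0.81, SE 0.060, adjusted p = 2.54e-07), and after scaling its log2 difference was 0.21 (adjusted p = 0.00147). For both genes the groups were far apart on the TPM scale.

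Among the structural beta subunits, Prosbeta6 was at 183, 195, 187, 189.7 and 178 TPM in the libraries labelled dHNF4 RNAi, against 79.4, 97.2, 94.6, 92.4 and 100.3 TPM in the control libraries, again without overlap. Its log2 difference was 1.00 (SE 0.067, adjusted p = 1.29e-07), and 0.41 after scaling (adjusted p = 0.00012). Prosbeta3, Prosbeta4 and Prosbeta7 had log2 differences of 0.86, 0.97 and 0.82 on the TPM scale and of 0.27, 0.37 and 0.22 after scaling.

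The base genes had a median log2 difference of 0.92 on the TPM scale and 0.32 after median-of-ratios scaling. Within the base, the median of the 6 ATPase genes was 0.94 and that of the 4 Rpn genes 0.81. Rpt4, an ATPase, had the smallest adjusted p of the 32 genes and little spread between libraries. It measured 146, 157, 154, 144 and 144 TPM in the libraries labelled dHNF4 RNAi, against 63.7, 70.1, 71.3, 68.6 and 68.7 TPM in the control libraries, and the lowest of the first group was over 2-fold the highest control. The log2 difference was 1.11 (SE 0.051, adjusted p = 1.44e-08), and 0.51 after scaling.

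Rpt1, also an ATPase, measured 171, 188, 165, 173 and 166 TPM in the libraries labelled dHNF4 RNAi, against 73.1, 94.5, 82.4, 86.0 and 82.4 TPM in the control libraries (log2 difference 1.04, SE 0.071, adjusted p = 1.51e-07), and had a log2 difference of 0.44 after scaling (adjusted p = 1.62e-05). Its span is shared with CG17985 on the same strand, at 11.8 TPM in the libraries labelled dHNF4 RNAi and 8.92 TPM in the control libraries by mean. Whether their exons overlap was not examined, so that any division of reads between them is unknown. The other ATPase genes Rpt2, Rpt3, Rpt5 and Rpt6 had log2 differences of 0.79 to 0.95 on the TPM scale and of 0.19 to 0.35 after scaling. The tails of Rpt2, Rpt3 and Rpt5 are known from yeast to dock into the alpha ring.

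The smallest differences of the base were in Rpn13, a ubiquitin receptor, and Rpn1, a scaffold that receives the shuttle proteins. Rpn13 measured 138, 161, 143, 143 and 140.0 TPM in the libraries labelled dHNF4 RNAi, against 79.7, 91.8, 87.6, 83.5 and 87.7 TPM in the control libraries (log2 difference 0.75, SE 0.061, adjusted p = 4.79e-07). Rpn1 measured 105, 106, 103, 98.5 and 94.9 TPM in the libraries labelled dHNF4 RNAi, against 52.1, 65.0, 61.3, 61.9 and 56.9 TPM in the control libraries (log2 difference 0.76, SE 0.067, adjusted p = 8.32e-07). Neither gene's groups overlapped on the TPM scale. After scaling, the log2 differences were 0.15 for Rpn13 (adjusted p = 0.0358) and 0.17 for Rpn1 (adjusted p = 0.00741). The other ubiquitin receptor, Rpn10, and the scaffold Rpn2 had log2 differences of 0.86 and 0.97 on the TPM scale and of 0.26 and 0.37 after scaling.

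The lid genes had a median log2 difference of 0.92 on the TPM scale and 0.33 after median-of-ratios scaling. Rpn7 and Rpn5, structural lid subunits, differed most. Rpn7 measured 136, 151, 144, 133 and 131 TPM in the libraries labelled dHNF4 RNAi, against 59.2, 75.8, 67.1, 64.6 and 62.2 TPM in the control libraries (log2 difference 1.07, SE 0.072, adjusted p = 1.46e-07). Rpn5 measured 116, 119, 118, 109.8 and 107 TPM in the libraries labelled dHNF4 RNAi, against 47.4, 60.4, 58.5, 55.7 and 54.7 TPM in the control libraries (log2 difference 1.03, SE 0.069, adjusted p = 1.40e-07). In both genes the libraries labelled dHNF4 RNAi stood well clear of the control libraries in TPM. After scaling, the log2 differences were 0.48 for Rpn7 (adjusted p = 9.22e-06) and 0.44 for Rpn5 (adjusted p = 2.27e-05).

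The smallest differences of the lid were in Rpn12 and in Rpn6, which is known to brace the lid against the core. Rpn12 measured 123, 144, 129, 135 and 117 TPM in the libraries labelled dHNF4 RNAi, against 69.9, 81.8, 78.1, 79.1 and 77.4 TPM in the control libraries (log2 difference 0.74, SE 0.067, adjusted p = 1.13e-06). Rpn6 measured 142, 146, 136, 130.4 and 131 TPM in the libraries labelled dHNF4 RNAi, against 65.8, 90.4, 77.8, 76.9 and 74.5 TPM in the control libraries (log2 difference 0.83, SE 0.078, adjusted p = 1.53e-06). Both were separated on the TPM scale, and Rpn12 lost its call after scaling, at a log2 difference of 0.14, while Rpn6 had 0.23 (adjusted p = 0.00197). Rpn11, the enzyme that cuts ubiquitin off the substrate, had a log2 difference of 0.90 on the TPM scale and 0.30 after scaling, and its partner Rpn8 had 0.86 on the TPM scale and 0.27 after scaling. Rpn3 and Rpn9 had 0.94 and 0.96 on the TPM scale and 0.35 and 0.37 after scaling.

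**Figure D2:**
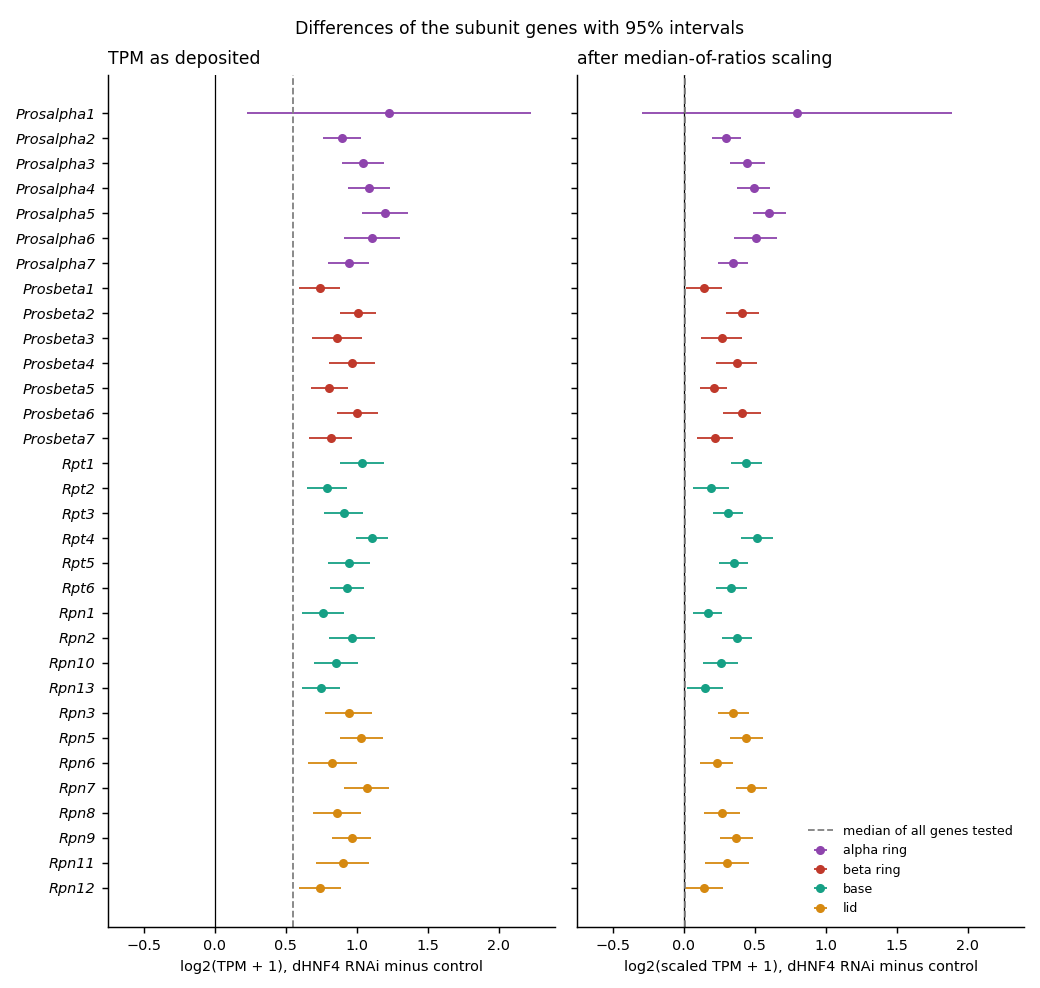
Log2 differences, dHNF4 RNAi minus control, of the 32 plain subunit genes with 95% intervals from limma, on the TPM scale (left) and after median-of-ratios scaling (right). Dashed lines mark the median of all genes tested, 0.55 at the left and 0.01 at the right, and every point lies to the right of them.

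Summed by sub-complex, the alpha ring genes held 1117 ± 54.8 TPM in the libraries labelled dHNF4 RNAi and 540.0 ± 45.2 TPM in the control libraries (SD, n = 5 each, as for the next sums). The beta ring genes held 1239.6 ± 55.1 TPM in the libraries labelled dHNF4 RNAi and 669 ± 50.3 TPM in the control libraries. The base genes held 1426 ± 58.7 and the lid genes 1009 ± 55.6 TPM in the libraries labelled dHNF4 RNAi, against 757 ± 50.0 TPM for the base and 533 ± 46.2 TPM for the lid in the control libraries. No sum overlapped between the groups in TPM. After median-of-ratios scaling the sums lay closer together, and again none overlapped. The scaled alpha ring sum was 870.1 to 962 in the libraries labelled dHNF4 RNAi and 619 to 701 in the control libraries. The scaled beta ring sum was 962 to 1068 in the libraries labelled dHNF4 RNAi and 773 to 896 in the control libraries. The base had scaled sums of 1116 to 1227 and the lid of 770.3 to 879 in the libraries labelled dHNF4 RNAi, against 891 to 979.8 for the base and 620.4 to 698 for the lid in the control libraries.

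Proportions between the sub-complexes were taken from their median genes, and scaling by a single factor per library does not change them. They were not computed after quantile normalization. The median cap gene stood at 0.737 to 0.756 of the median core gene in the libraries labelled dHNF4 RNAi and at 0.748 to 0.828 in the control libraries. The ratio of the beta to the alpha median was 0.913 to 1.01 in the libraries labelled dHNF4 RNAi and 1.01 to 1.13 in the control libraries. The ratio of the lid to the base median was 0.814 to 0.861 in the libraries labelled dHNF4 RNAi and 0.803 to 0.860 in the control libraries. The ranges overlapped for all 3 ratios. For beta to alpha they met only at their edge. For cap to core, control replicate 5, at 0.748, lay inside the range of the libraries labelled dHNF4 RNAi, and the other control libraries, at 0.814 to 0.828, lay above it. These ratios are descriptions with no test.

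**Figure D3:**
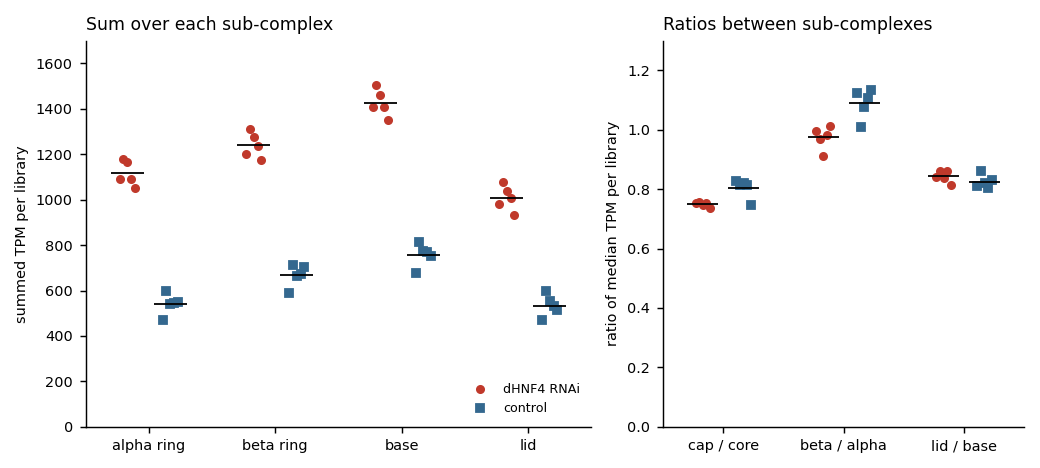
Summed TPM of the alpha ring, beta ring, base and lid genes in each library (left) and ratios between the median genes of sub-complexes in each library (right), with red circles for dHNF4 RNAi, blue squares for control and bars for means. All 4 sums are separated by group in TPM, while the ranges of the ratios overlap, for beta to alpha only at the edge and for cap to core through 1 control library.

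The spread between subunits was the same size in both groups. The CV of TPM over the 31 genes within a library was 21.5% ± 0.362 in the libraries labelled dHNF4 RNAi and 21.5% ± 1.63 in the control libraries (SD, n = 5 each). The highest subunit was 2.19-fold ± 0.0402 above the lowest in the libraries labelled dHNF4 RNAi and 2.26-fold ± 0.0983 in the control libraries. The order of levels was also similar, with a Spearman correlation of 0.90 between the group means across the 31 genes. Lower levels went with longer coding sequences, although TPM are corrected for length. The correlation across the 31 genes was -0.59 in the libraries labelled dHNF4 RNAi and -0.55 in the control libraries. Core genes have coding lengths of 603 to 846 bp and cap genes of 792 to 3087 bp, so that length and sub-complex go together. The log2 difference itself did not follow coding length, with a correlation of -0.08. These correlations are across genes, which share their libraries and are not independent.

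The 32 genes are scattered, with 4 on chromosome 2L, 10 on 2R, 5 on 3L, 9 on 3R and 4 on X. In total 16 of them overlap another gene, and for Rpt1 alone this gene is on the same strand. The kit is stranded per the labels, but whether strand was used in quantification is not given in the sources used here.

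Within each group, the subunit genes often had their lowest or highest value in the same library. On the TPM scale, control replicate 1 was the lowest control library for 31 of the 32 genes, beside 37.1% of all genes tested, and control replicate 2 the highest for 25, beside 57.1%. Replicate 5 was the lowest of the libraries labelled dHNF4 RNAi for 24 genes, beside 27.7% of all genes tested, and replicate 2 the highest for 23, beside 16.5%. After median-of-ratios scaling these counts were 19, 1, 15 and 26 of the 32, beside 14.0%, 26.7%, 21.6% and 19.7% of all genes tested, so that the place of control replicate 2 depended on the scale. Control replicate 2 was 0.16 above the other controls on the log2(TPM + 1) scale for the median subunit and 0.18 above for the median of all genes tested, and for the median subunit it was at -0.05 after scaling. Control replicate 1 was lower, at -0.21 for the median subunit and -0.11 for the median of all genes tested, and at -0.09 for the median subunit after scaling. These are descriptions with no test. With any 1 library left out, 31 or 32 of the 32 genes were called higher.

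Most copies were near or at 0 TPM. Of the 15 copies, Prosalpha4T1, Prosbeta2R1 and Rpn12R were listed at 0 in all 10 libraries. A further 8 were under 0.2 TPM in every library and above 0 in 1 to 6 of them, namely Prosalpha4T2, Prosbeta2R2, Prosbeta4R1, Prosbeta4R2, Prosbeta5R1, Prosbeta5R2, Rpt6R and Rpn13R. The highest value among these 8 was 0.119 TPM, for Rpt6R in control replicate 3. The remaining copies were Rpt4R, Rpt3R, Prosalpha6T and Prosalpha3T. Copies of close sequence divide reads with their parent gene by estimation, and the part of this in their values was not tested.

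Rpt4R, a copy of the ATPase gene Rpt4 (FBgn0036224, chromosome 3L, 11941912 to 11943485, plus strand, BDGP6.54), was the one copy at more than 2 TPM. It was at 2.65, 2.12, 2.30, 2.67 and 2.34 TPM in the libraries labelled dHNF4 RNAi, against 0.084, 0.275, 0.083, 0.120 and 0.076 TPM in the control libraries. The groups were far apart, and control replicate 2 was the highest control. The log2 difference was 1.60 (SE 0.094, adjusted p = 5.91e-08) on the log2(TPM + 1) scale, which understates changes of low genes, and 3.53 (adjusted p = 3.39e-07) with a pseudocount of 0.1. After median-of-ratios scaling it was 1.36 (adjusted p = 2.69e-07). Rpt4R was the one copy with a mean of at least 1 TPM, the limit for testing, and it passed only through the group in which it was high. By mean, its level was 1.62% of that of Rpt4 in the libraries labelled dHNF4 RNAi and 0.186% in the control libraries.

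The 14 other copies were below the limit for testing, and their tests come from a fit with no filter, adjusted over all 14310 genes, of which 44.1% were called higher. Rpt3R, a copy of the ATPase gene Rpt3, measured 0.640, 0.472, 0.262, 0.450 and 0.365 TPM in the libraries labelled dHNF4 RNAi, against 0.030, 0.126, 0.041, 0.032 and 0.054 TPM in the control libraries. The groups did not overlap, and the log2 difference was 0.44 (adjusted p = 0.000248). Rpt3R was at 0.267% of the level of Rpt3 in the libraries labelled dHNF4 RNAi and at 0.0652% in the control libraries, by mean.

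Both copies of alpha ring genes with a measurable level had overlapping groups. Prosalpha6T measured 0.605, 0.693, 1.06, 0.725 and 0.335 TPM in the libraries labelled dHNF4 RNAi, against 0.877, 1.05, 0.596, 0.425 and 0.677 TPM in the control libraries (log2 difference -0.04, adjusted p = 0.901). Prosalpha3T measured 0.159, 0.373, 0.066, 0.359 and 0.159 TPM in the libraries labelled dHNF4 RNAi, against 0.052, 0.293, 0.141, 0 and 0.095 TPM in the control libraries (log2 difference 0.13, adjusted p = 0.274). In flies both are known as testis-specific forms of their parent subunits.

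**Figure D4:**
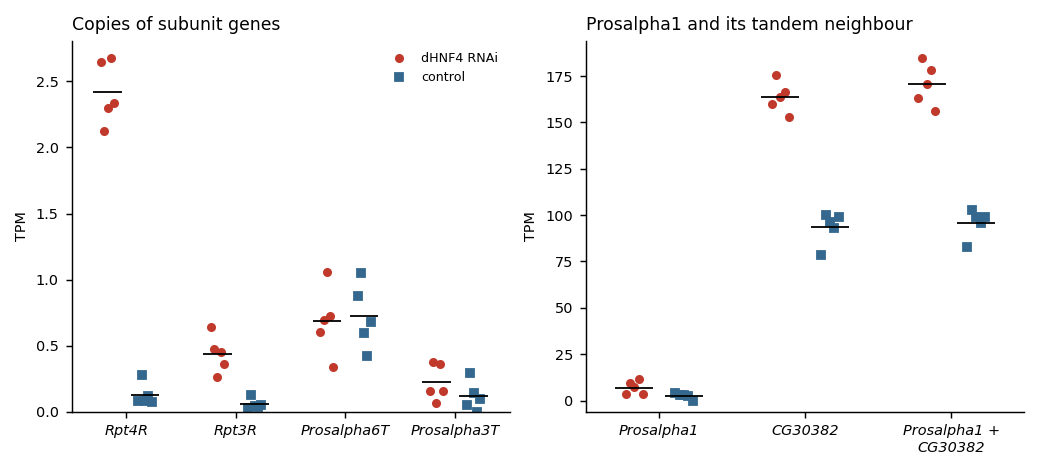
TPM per library of the 4 copies with the highest levels (left) and of Prosalpha1, its tandem neighbour CG30382 and their sum (right), with red circles for dHNF4 RNAi, blue squares for control and bars for means. Rpt4R and Rpt3R are separated by group, Prosalpha6T and Prosalpha3T are not, and CG30382 carries nearly all of the sum of its pair.

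Markers of testis, which could adhere to a dissected gut, were low in both groups. Of 34 testis markers, 29 were under 1 TPM in all libraries, and their sum was 16.3 to 24.9 TPM in the libraries labelled dHNF4 RNAi and 23.0 to 26.4 TPM in the control libraries. Of the 3 that were tested, 0 were higher and 2 lower, namely bol and topi. At an unadjusted p under 0.05 these counts were the same, and after median-of-ratios scaling 0 were higher and 3 lower. Of all genes tested, 66.9% were called higher and 16.3% lower on the TPM scale, and 35.6% and 35.8% after scaling. Markers of the male accessory gland summed to 3.04 to 67.5 TPM in the libraries labelled dHNF4 RNAi and to 1.47 to 5.56 TPM in the control libraries. These ranges overlapped. Of these 16 markers, 14 reached 1 TPM in at least 1 library and 2 were under 1 TPM in all. Only 3 were tested, with 2 higher on the TPM scale (Acp53Ea and Acp98AB) and 1 after scaling (Acp53Ea). The part of that tissue in the values of the copies was not tested.

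In the authors' deposited table of log2 fold changes and unadjusted p-values, all 32 plain subunit genes were also above 0. Their median was 0.57, where that of all 10494 genes listed was 0.13. At an unadjusted p under 0.05, 25 of the 32 were higher in the authors' deposited table, as were 21.9% of all genes listed. The 7 others in the authors' deposited table were Prosalpha2, Prosbeta1, Prosbeta5, Prosbeta7, Rpt2, Rpn1 and Rpn6. Without Prosalpha1, the log2 fold changes in the authors' deposited table were 0.30 to 0.79. For Prosalpha1 the authors' deposited table gave 2.55, and for Rpt4R 3.56 (unadjusted p = 3.97e-12). For Rpt3R the authors' deposited table gave 1.90 (unadjusted p = 0.0231), and for Prosalpha6T 0.01 (unadjusted p = 0.987).

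The genes that assemble and regulate the proteasome were mostly higher on the TPM scale, as were most genes tested. Of 14 tested, 13 were higher and 1 lower on that scale (median log2 difference 0.72). After median-of-ratios scaling, 7 of the 14 were higher and 2 lower (median 0.13). Of all genes tested, 66.9% were called higher and 16.3% lower on the TPM scale (median 0.55). After scaling, 35.6% of all were called higher and 35.8% lower (median 0.01). Pomp, which matures the core particle, ranged from 93.5 to 105 TPM over the libraries labelled dHNF4 RNAi and from 35.9 to 45.5 TPM over the control libraries, with a log2 difference of 1.26 (adjusted p = 3.21e-08). REG, an alternative activator cap, had a log2 difference of 1.17 (adjusted p = 2.77e-08). The shuttle protein gene rngo had 0.87 (adjusted p = 2.00e-07) and Txl, a thioredoxin-like gene, 0.76 (adjusted p = 3.66e-07). These 4 kept their calls after scaling.

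The transcription factor gene cnc and the F-box gene ntc were singled out after their values were seen. For cnc the sign depended on the scaling. It averaged 127 ± 8.67 TPM in the libraries labelled dHNF4 RNAi and 99.3 ± 11.1 TPM in the control libraries, a log2 difference of 0.36 (adjusted p = 0.00128) on the TPM scale and of -0.24 (adjusted p = 0.00414) after median-of-ratios scaling. The lower member of the list was ntc, known in flies for its part in proteasome activity of developing sperm, at 4.40 ± 1.01 TPM in the libraries labelled dHNF4 RNAi and 6.84 ± 2.36 TPM in the control libraries (log2 difference -0.51, adjusted p = 0.0254).

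For the genes of ubiquitin itself the direction depended on the scaling. Of 4, 3 were higher on the TPM scale, beside 66.9% of all genes tested. The median log2 difference of the 4 was 0.27, under the all-gene median of 0.55. After median-of-ratios scaling all 4 were lower, beside 35.8% of all genes tested, with a median of -0.33. After quantile scaling 4 were higher and 0 lower, beside 44.3% and 29.1% of all genes tested. The median of the 4 was then 0.19, beside an all-gene median of 0.12. Whether these genes differed from the subunits was not tested. RpL40 and RpS27A, which encode ubiquitin fused to ribosomal proteins, had log2 differences of 0.30 and 0.23 on the TPM scale and of -0.30 and -0.37 after scaling. Ubi-p63E, a polyubiquitin gene, had 0.34 on the TPM scale and -0.26 after scaling. Ubi-p5E, the other polyubiquitin gene, had 0.05 on the TPM scale (adjusted p = 0.475).

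The enzymes that attach ubiquitin (E1 and E2) were called higher for 11 of 13 tested and lower for 2 on the TPM scale. Of all genes tested, 66.9% were called higher and 16.3% lower there. The median log2 difference of the list was 0.75. After median-of-ratios scaling 7 of the list were higher and 2 lower, beside 35.6% and 35.8% of all genes tested. The lower genes were Ubc7 and Ubc84D on both scales, named after their values were seen. The 4 with the smallest adjusted p were the E2 genes ben (0.99, adjusted p = 4.86e-08), Ubc2 (1.09, adjusted p = 2.39e-07), Ubc4 (0.87, adjusted p = 3.08e-07) and Ubc6 (1.15, adjusted p = 3.32e-07), with log2 differences in parentheses.

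The genes of the p97 unfoldase, its cofactors, ubiquitin shuttles and degradation from the endoplasmic reticulum were called higher in 10 of 10 on the TPM scale (median 0.80). After scaling, 6 of 10 were called higher (median 0.21). The shares of all genes tested called higher were 66.9% on the TPM scale and 35.6% after scaling. TER94, which encodes p97, averaged 289 ± 12.6 TPM in the libraries labelled dHNF4 RNAi and 139.7 ± 13.9 TPM in the control libraries, with a log2 difference of 1.05 (adjusted p = 1.87e-07). Its cofactor genes Npl4 and p47 had 1.10 (adjusted p = 4.75e-08) and 0.97 (adjusted p = 2.34e-07), and the shuttle gene Ubqn 0.85 (adjusted p = 7.11e-07).

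Among complexes of related architecture, the COP9 signalosome, whose subunits resemble those of the lid, was called higher for 8 of 8 tested genes on the TPM scale (median 0.89). After scaling it was called higher for 5 of 8 (median 0.31). All genes tested were called higher in 66.9% on the TPM scale and in 35.6% after scaling, and lower in 16.3% and 35.8%. CSN5, its catalytic subunit and the relative of Rpn11, averaged 48.4 ± 3.05 TPM in the libraries labelled dHNF4 RNAi and 19.2 ± 1.91 TPM in the control libraries (log2 difference 1.29, adjusted p = 6.34e-08). CSN7, CSN1b and CSN6 had log2 differences of 1.08, 0.90 and 0.88. The translation factor eIF3, also of lid-like subunits, was called higher for 13 of 13 genes on the TPM scale at a median of 0.60, near the all-gene median, and after scaling for 4, with 3 lower (eIF3i, eIF3k and eIF3m). Its 4 genes with the smallest adjusted p were eIF3a (1.01), eIF3g1 (0.72), eIF3l (0.75) and eIF3d1 (0.65), of which eIF3d1 had an adjusted p of 0.331 after scaling.

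The CCT chaperonin, an unrelated ring complex that folds actin and tubulin, was called higher for 8 of 8 genes on both scales. Its medians were 1.20 on the TPM scale and 0.60 after scaling. The shares of all genes tested called higher were 66.9% and 35.6% on these scales. CCT6, CCT4, CCT3 and CCT7 had log2 differences of 1.33, 1.20, 1.19 and 1.19 on the TPM scale. The median difference of the subunits, 0.94 on the TPM scale and 0.35 after scaling, was below that of the CCT genes and above those of the degradation lists, the COP9 signalosome and eIF3. No test was made between lists.

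**Figure D5:**
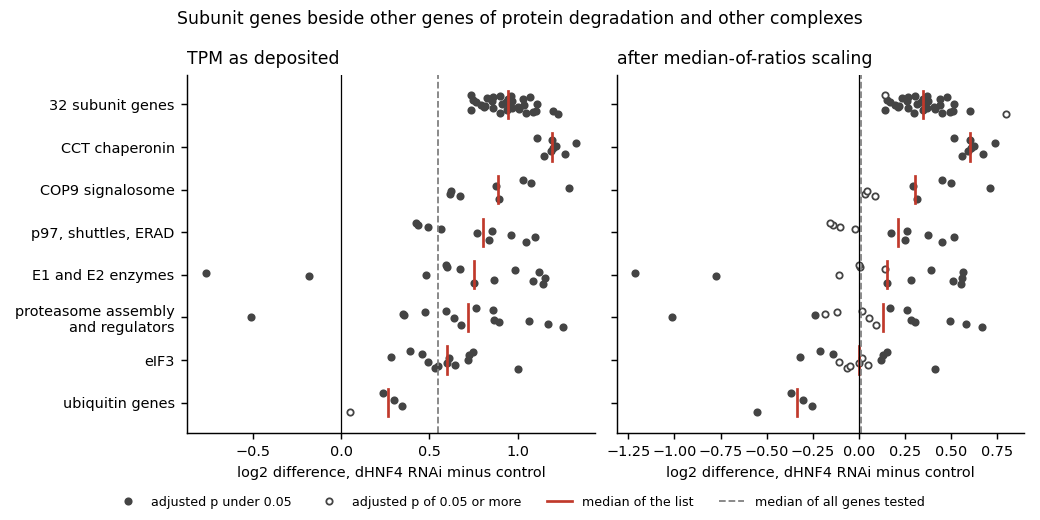
Log2 differences, dHNF4 RNAi minus control, of the 32 plain subunit genes and of the tested members of 7 other lists, on the TPM scale (left) and after median-of-ratios scaling (right). Filled circles passed an adjusted p under 0.05, open circles did not, red bars are list medians and dashed lines the all-gene medians of 0.55 and 0.01. The subunits have a median of 0.94 at the left and 0.35 at the right, and the ubiquitin genes lie left of the dashed line in both panels.

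Progenitor markers and cell cycle genes were higher, as were the subunit genes, while the other cell markers described next were mixed or mostly lower. Of all genes tested, 66.9% were called higher and 16.3% lower on the TPM scale. After median-of-ratios scaling, 35.6% of all were called higher and 35.8% lower. Of 10 markers of intestinal progenitors (stem cells and their early daughters), 10 were higher on both scales, and their sum was 192 to 221 TPM in the libraries labelled dHNF4 RNAi and 23.0 to 55.2 TPM in the control libraries. All 17 tested genes of the cell cycle were higher on both scales, with a median log2 difference of 2.22 on the TPM scale, and the list summed to 202 to 241 TPM in the libraries labelled dHNF4 RNAi and 17.6 to 47.7 TPM in the control libraries. Markers of enterocytes, mostly abundant digestive enzymes, were higher for 2 and lower for 6 of 12 on the TPM scale and summed to 80504 to 97415 TPM in the libraries labelled dHNF4 RNAi and 106512 to 148912 TPM in the control libraries. The higher ones were the transcription factor gene nub and mex1. After median-of-ratios scaling 2 were higher and 10 lower.

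Enteroendocrine markers were higher for 4 (pros, AstA, AstC and CCHa1) and lower for 4 of 10 (Tk, NPF, CCHa2 and Orcokinin) on the TPM scale, and visceral muscle markers higher for 1 (Tm1) and lower for 3 of 10 (wupA, up and sls). After median-of-ratios scaling these counts were 1 higher and 6 lower for enteroendocrine and 0 higher and 9 lower for muscle markers. The shares of all genes tested were 66.9% higher and 16.3% lower on the TPM scale, and 35.6% and 35.8% after scaling. Fat body markers were lower for 3 of 3 tested on both scales (Lsp2, apolpp and to) and summed to 131 to 164 TPM in the libraries labelled dHNF4 RNAi and 233 to 361 TPM in the control libraries. The part of any of these cells, or of cell division, in the values of the subunit genes was not tested.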

How the data were processed

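RNA of midguts was measured in 10 libraries, 5 labelled dHNF4 RNAi and 5 labelled control. The authors deposited a table of TPM for 14310 genes, with totals of 975327 to 982443 per library, and a table of log2 fold changes and unadjusted p-values for 10494 genes. The submitters' processing notes name BDGP6 as the build, and edgeR, kallisto, FastQC and Trim Galore as tools, without versions. Which tool made which table is not given in the sources used here, nor is any use of RUVSeq, a name that appears with the deposited results. Sequencing depth is unknown because TPM keep none, so no counting interval was computed and only the number of libraries sets the precision given. Since TPM are shares, a loss of abundant transcripts raises the values of the remaining genes.

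Symbols came from the deposited files. Of their 14310 identifiers, 14263, and all 47 subunit genes and copies, matched the annotation (Ensembl release 115, BDGP6.54) that gave coordinates and lengths. The 8784 genes whose TPM averaged 1 or more over the 10 libraries entered a limma fit (version 3.58.1, R 4.3.3) on log2(TPM + 1), with a mean-variance trend, two-sided, without covariates, and Benjamini-Hochberg adjustment over all of them, and 5526 genes were not tested. A gene was called at an adjusted p under 0.05. The procedure was tested on simulated data with a small set of changed genes. These data held no shift of most genes, so that the test does not cover the shift seen here. The labels call the libraries biological replicates and give no batch.

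Every member is described. Values per library are printed for the copies above 0.2 TPM, the catalytic subunits, the 2 largest and 2 smallest differences of each sub-complex and the genes whose call changed with median-of-ratios scaling. Other lists give up to 4 called genes by smallest adjusted p. Members and lists were chosen with earlier results of these data known.

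The alternatives were median-of-ratios scaling, totals recomputed after removing mitochondrial genes and the 20 of highest abundance, quantile normalization, pseudocounts of 0.1 and 5, no filter, a filter at a mean of 5 TPM, no trend, the replicate number as a block, and each library left out. A filter in both groups and the summed Prosalpha1 pair were added after seeing the data.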

Additional observations from a re-analysis of the deposited data

Results flagged for a closer look

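Of 87 groups of 5 libraries checked for a library far from the others, 4 held one, and chance gives about 1 in 20 groups (Dixon's critical value 0.71). Prosbeta4 was at 76.2 TPM in control replicate 1, where the other control libraries were at 91.7 to 97.3 TPM. Rpn13 was at 161 TPM in replicate 2 of the libraries labelled dHNF4 RNAi, where the others of that group were at 138 to 143 TPM. Rpt3R was at 0.126 TPM in control replicate 2, against 0.0298 to 0.0541 TPM in the other control libraries. Rpt4R was at 0.275 TPM in control replicate 2, against 0.0758 to 0.120 TPM in the other control libraries. For both copies control replicate 2 was still below every library labelled dHNF4 RNAi.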

How the results depend on the processing

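Over the 32 subunit genes, Rpt4R and CG30382, 672 of 679 values under an alternative kept their direction and their side of the threshold, 0 reversed and 7 lost the call. Of these, 6 were of Prosalpha1 (adjusted p of 0.169 after median-of-ratios scaling, 0.123 after quantile normalization, 0.066 with a pseudocount of 0.1, 0.0695 with no filter, and the values without single libraries given above), and 1 was of Rpn12 after median-of-ratios scaling. Rpt4R, tested only through the group in which it was high, has no value under the filter at a mean of 5 TPM. It also has none under the filter in both groups, so that neither setting could count against it. Prosalpha1 has no value under the filter at a mean of 5 TPM. The median log2 difference of the 32 genes was 0.94 on the TPM scale. It was 0.35 after median-of-ratios scaling and 0.68 after quantile normalization, where the all-gene medians were 0.01 and 0.12. The median of the cap genes minus that of the core genes was -0.07, and -0.14 after quantile normalization. Over the 8 lists of pathways, complexes and the cell cycle, 83 genes were higher and 3 lower on the TPM scale. After median-of-ratios scaling 54 were higher and 11 lower. The shares of all genes tested were 66.9% higher and 16.3% lower on the TPM scale, and 35.6% and 35.8% after that scaling. The cause of the change in the list counts was not tested. With single libraries left out, 31 to 32 subunit genes were higher and 0 lower, 7170 to 7337 genes of all were called, 83 list genes were higher and 2 to 3 lower, and the median difference was 0.90 to 0.98 and cap minus core -0.07 to -0.04. With the replicate number as a block (replicate block), 32 subunit genes were higher, beside 66.6% of all genes tested. In either direction 7249 genes of all were called. Libraries of the same number correlated at r of -0.33 to 0.36 in their deviations from the group means. Of 5 libraries labelled dHNF4 RNAi, 1 correlated best with its own number. These few correlations cannot decide whether a number marks a shared batch. Depth is unknown, so that the values of copies near 0 have no counting limit.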
